A study of Mus musculus with 15 samples.

Results

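Postnatal day (P) 7 and P14 lie on either side of the onset of hearing in the mouse, and the transcripts of the auditory nerve were compared between these ages in all genes of the deposited table. Of 15 libraries, 6 belong to this comparison: P7 replicates 4, 5 and 6 and P14 replicates 1, 2 and 3. Each was made from auditory nerve dissected out of both cochleae of 1 mouse. The labels give tissue and age only, so strain, sex, litter and library date are unknown. Libraries of P3 and P21, 3 at each age, and 3 of adult mice entered the same fit, and set the step from P7 to P14 beside the steps before and after it.

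The auditory nerve carries the axons of spiral ganglion neurons, which sit in the core of the cochlea and link the hair cells to the brainstem. Most are type I neurons, whose cell bodies and axons are wrapped by Schwann cells in the periphery and by oligodendrocytes near the brain. Before hearing starts the hair cells drive the nerve with spontaneous bursts of release. Afterwards its axons fire at high, sustained rates that are locked to sound. Kv1, Kv3 and HCN channels, nodes of Ranvier and a fast release machinery are known to serve that kind of firing.

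The tissue label was checked against markers. Neuronal, Schwann and oligodendrocyte genes were present in all 6 libraries, but so were genes of bone, cartilage, the tectorial membrane and cochlear fibrocytes. In bulk tissue, fewer cells of a type and less RNA per cell cannot be told apart. Between 38114662 and 41501432 reads were recovered per library, and 3 reads, taken as the floor of detection, equal a normalized count of 2.71 to 3.22. P14 replicate 3 stood apart in tissue content: the summed count of the 24 oligodendrocyte lineage genes was 82645, 99455 and 173753 in the P14 libraries (replicates 1, 2 and 3) and 96070.3, 111853 and 86832 in the P7 libraries (replicates 4, 5 and 6). The 21 genes of fibrocytes and stria vascularis summed to 755043, 864680.0 and 463790.0 at P14, lowest in replicate 3, and to 183995, 197079 and 195696 at P7. The 17 genes of the tectorial membrane and transient cochlear epithelium summed to 255571, 253303 and 214044 at P14 and to 446115, 476489 and 360716 at P7. P14 replicate 1 had the highest sums of the 13 globin and erythroid genes (50710.3, 24742 and 25430.4 at P14, 19934, 16614 and 30950.3 at P7) and of the 13 neutrophil granule genes (7222, 1792 and 2058 at P14, 808, 778 and 2365 at P7). It was also the only one of the 6 with a female pattern: Xist, the RNA of the inactive X chromosome, stood at 33477, 225 and 7.51 at P14, and Y-linked Eif2s3y at 0, 2526 and 1576, against 3317, 3366 and 3343 at P7.

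Gene levels are normalized read counts, given in the order of the replicates or as mean ± SD (n = 3 libraries at each age). A fold change is the difference between P14 and P7 on the log2(value + 1) scale with its standard error (SE), tested with limma across 16723 genes. A gene "rose" or "fell" where its Benjamini-Hochberg adjusted p was under 0.05. Of all genes tested, 24.3% rose and 23.8% fell, and for 61.4% of genes the P7 range lay wholly above or below the P14 range. The median log2 fold change was -0.02, and a share of a list near these values is no result about the list. "Fell by" gives a size on the log2 scale. The lists hold 1330 genes, of which 1318 are in the table and 1290 had enough counts to be tested; counts below are of tested members. Nearly as many genes rose by at least 4-fold (288) as fell by at least 4-fold (330).

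The largest falls that met the naming rule were of Tecta and Tectb (tectorial membrane) and Acp5 and Mmp9 (osteoclasts), given below. Receptors and secreted proteins known from neurons were among the other genes that fell most. The cells behind their counts were not tested. Chrnb4, a nicotinic acetylcholine receptor subunit (chromosome 9, 55028156 to 55048544), stood at 513, 618 and 372 in the P7 libraries and at 10.3, 6.12 and 24.7 in the P14 libraries. Its groups did not overlap, which was a condition for naming the genes that fell most (log2 fold change -5.27 ± 0.66 SE, adjusted p = 2.31e-05, limma). With a pseudocount of 10 in place of 1 its log2 fold change was -4.48. Oprk1, the kappa opioid receptor (chromosome 1, 5588493 to 5606133), went from 474, 499 and 352 to 19.6, 19.4 and 26.8, with every P14 library far under the lowest P7 library (-4.27 ± 0.56 SE, adjusted p = 3.74e-05). Ecel1, an endopeptidase of neurons needed for the branching of motor axons (chromosome 1, 87147655 to 87156356), fell 17.9-fold from 2465 ± 111 to 138 ± 26.9. Ly6h, a neuronal membrane protein of the Ly6 family that limits nicotinic receptors, fell 15.3-fold to 56.3 ± 10.7. Oc90, an otoconial matrix protein, fell from 16015 ± 4353 to 645 ± 183, and the H19 RNA, an imprinted transcript of growing tissue, from 106709 ± 6315 to 6799.9 ± 1400.3. At P3, Chrnb4 had been at 80.2 ± 9.85, under its P7 level, whereas Oprk1 at 384 ± 5.77, Ecel1 at 1801 ± 245 and H19 at 165730.0 ± 19916 had been nearer to theirs or above it.

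Among those that rose, Vwa7, a protein with a von Willebrand factor A domain, stood at 134, 147 and 161 and then 2218, 2557 and 2269.7, a 15.9-fold rise (3.99 ± 0.20 SE, adjusted p = 1.66e-08). Faim2, a neuronal inhibitor of Fas-induced apoptosis (chromosome 15, 99497005 to 99528165), rose 9.81-fold from 602 ± 60.7 to 5952 ± 1062. Coch, the cochlin protein of fibrocytes, rose 9.53-fold, its 3 P14 values being 466750.0, 559858 and 255773, with the lowest in replicate 3. Ceacam16, a protein of the mature tectorial membrane, went from 94.00, 111 and 57.3 to 63955, 59747 and 35337, the largest rise that met the naming rule. Over the same interval Tecta and Tectb, the tectorins made while that membrane is laid down, fell from 16682 ± 3886 to 108 ± 38.5 and from 167960.0 ± 45658 to 2201 ± 307. Gpx2, a glutathione peroxidase of epithelia, rose 9.64-fold to 3543 ± 1227, and Odf3l2, of the outer dense fibre family, 9.57-fold to 482 ± 158.

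Some of these genes had not moved in this way before P7 or did not go on after P14. The step from P7 to P14 was tested against the step from P3 to P7 (2569 genes or 15.4% higher, 2348 or 14.0% lower) and against the step from P14 to P21 (2225 or 13.3% higher, 1627 or 9.73% lower). These tests share their P7 or P14 libraries with the comparison above, so they are not independent of it. Glra3, the alpha 3 subunit of the glycine receptor (chromosome 8, 55940825 to 56125352), stood at 5.06, 3.80 and 7.53 at P3 and 4.52, 2.91 and 9.39 at P7, near the floor, and then at 329.8, 557 and 270.4 at P14 and 435, 152 and 338 at P21. Its step differed from the one before (adjusted p = 0.000138, limma) and from the one after (adjusted p = 0.000166). With a pseudocount of 10 its log2 fold change was 4.62 in place of 5.92. Slc5a11, a sodium-coupled inositol transporter, had a similar first step: 3.62, 4.84 and 4.70 at P7, 218, 207 and 129.9 at P14 and 378, 581 and 366 at P21 (adjusted p = 5.48e-05 and 0.00143; log2 fold change 5.08, or 3.73 with a pseudocount of 10).

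Other genes peaked at one of the 2 ages. Thbs4, a thrombospondin of the extracellular matrix (chromosome 13, 92751586 to 92794818), stood at 108 ± 10.2 at P3 and 109 ± 2.81 at P7, reached 1335, 1186 and 1115 at P14 and was lower again at 511 ± 236 at P21 and 169 ± 24.4 in adults. Rarres1, a retinoic acid-responsive gene, had its highest mean at P14 as well (3113, 2493 and 1442, against 411, 162 and 315 at P7 and 361, 863 and 476 at P21). Both steps of Rarres1 differed (adjusted p = 0.0216 and 0.00024), as did both of Thbs4 (adjusted p = 0.000122 and 2.48e-05). Genes with a peak at P7 fell at P14. Dpp10, an auxiliary subunit of Kv4 channels (chromosome 1, 123332138 to 124045559), went from 554 ± 101 at P3 to 1358, 1616 and 1032 at P7 and 69.3, 66.3 and 136 at P14. Gcg, the glucagon precursor gene, went from 112 ± 14.4 to 526, 634 and 588 and 85.8, 73.5 and 113. Plet1, a membrane protein of placenta and other epithelia, went from 367 ± 99.8 to 1433, 2011 and 1077 and 188, 215 and 157, and Cpa6, a secreted carboxypeptidase, from 233 ± 17.9 to 775, 885 and 474 and 58.9, 63.3 and 59.02. For Dpp10, Plet1 and Cpa6 every P14 library also lay under every P3 library, and for Gcg P14 replicate 3 overlapped the P3 range. Without P7 replicate 5 the number of genes whose step differed from that of P3 to P7 was 3165, and without P7 replicate 4 it was 3226. Without P14 replicate 2 the number that differed from the step of P14 to P21 was 2131.

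**Figure D1:**
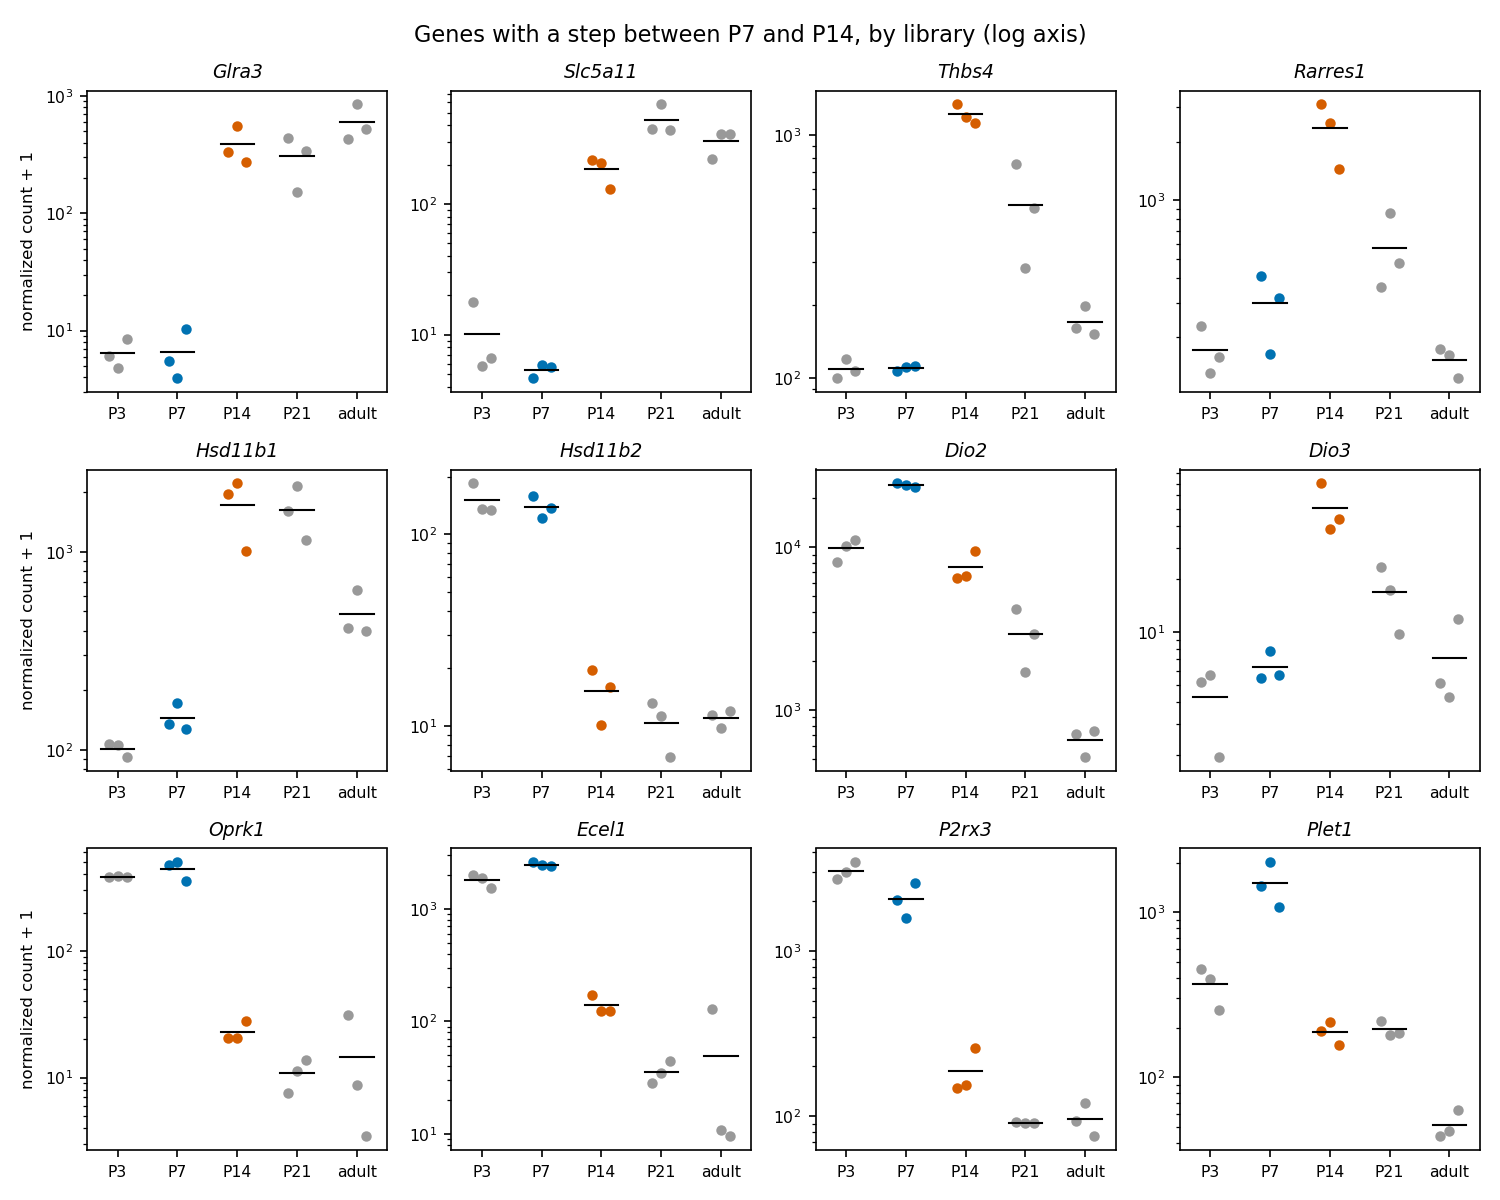
Normalized count + 1 (log axis) in each of the 15 libraries for 12 genes at P3, P7, P14, P21 and in adults, with P7 in blue, P14 in orange, the other ages in grey and a line at the mean of 3 libraries. In the top row Glra3 and Slc5a11 go from near the floor to between 129.9 and 557 at P14, and Thbs4 and Rarres1 are highest at P14.

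Voltage-gated potassium channel genes of fast firing rose. Of 18 Kv2, Kv3 and Kv4 genes, 10 rose, 0 fell and 8 did not pass, with a median log2 fold change of 0.92. Kcnc1 encodes Kv3.1, a high-threshold channel that repolarizes fast action potentials. Kcnc1 (chromosome 7, 46396468 to 46438704) stood at 839.6, 741 and 889 in the P7 libraries and at 5964, 6736 and 6413 in the P14 libraries. This was a 7.74-fold rise with no overlap (2.95 ± 0.22 SE, adjusted p = 3.27e-07). At P3 its mean had been 1118 ± 465, near its P7 level. Kcns1 and Kcns3, silent subunits that modify Kv2 channels, rose 3.04-fold and 3.06-fold, and Kcnip1, a calcium sensor of Kv4 channels, 3.11-fold. Among 10 Kv1 genes, 4 rose, 1 fell and 5 did not pass. Kcna1 and Kcna2, the low-threshold channels of the juxtaparanode that keep firing to single, timed spikes, rose 3.07-fold to 43337 ± 2988 and 3.79-fold to 23516 ± 1816. The beta subunit gene Kcnab2 rose from 2219.7, 2269.8 and 2400.4 to 17055, 20276 and 17084 (2.98 ± 0.12 SE, adjusted p = 3.85e-09). Kcna4, an A-type subunit of young neurons, fell from 189 ± 9.05 to 88.7 ± 17.3.

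Of 5 genes of HCN channels and their partner Pex5l, 4 rose, 0 fell and 1 did not pass. Hcn2 (chromosome 10, 79716634 to 79736108), a pacemaker channel opened by hyperpolarization, stood at 556, 460.0 and 484 at P7 and 2954, 3497 and 4163 at P14 (2.81 ± 0.18 SE, adjusted p = 8.59e-08). Hcn4, a slowly gating isoform, rose 2.76-fold. Hcn3 stood at 157 ± 22.2 and 248 ± 69.1 and was not called. Of 20 genes of KCNQ, calcium- and sodium-activated and tandem-pore potassium channels, 6 rose, 2 fell and 12 did not pass. Kcnt1, the sodium-activated Slack channel, rose 2.88-fold. The calcium-activated SK channels went opposite ways: Kcnn2 rose from 304 ± 44.1 to 881 ± 129 and Kcnn3 fell from 214 ± 33.3 to 57.4 ± 31.5.

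Sodium channel genes moved in both directions. Of 17 subunits and partners, 6 rose (35.3%), 4 fell (23.5%) and 7 did not pass (median -0.01). Over all genes tested, 24.3% rose and 23.8% fell. Scn4b, the subunit tied to resurgent sodium current (chromosome 9, 45139042 to 45154061), stood at 1516, 1593 and 1496 and then 11616, 13617 and 12041 (3.01 ± 0.18 SE, adjusted p = 4.55e-08). Fgf12, an intracellular factor that binds the channels, rose 3.61-fold. Of the pore-forming subunits, Scn8a and Scn1a rose and Scn3a, the subunit of embryonic neurons, fell from 419 ± 30.5 to 173 ± 34.1. The ratio of Scn8a to Scn2a was 1.95, 2.30 and 1.91 in the P7 libraries and 8.21, 9.35 and 8.76 in the P14 libraries, and Scn2a itself was not called (564 ± 30.3 and 695 ± 29.7). Such ratios are of counts and depend on gene length, so only their change is read. Of 16 voltage-gated calcium channel genes, 7 rose, 4 fell and 5 did not pass. Cacna1a, the P/Q-type channel of fast release, rose 2.64-fold to 1196 ± 123, while the T-type channels Cacna1g and Cacna1h, which open near rest, fell by 0.78 and 1.12 on the log2 scale.

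Of 26 scaffold and adhesion genes of the node and paranode, 19 rose, 2 fell and 5 did not pass (median 0.94). Sptbn4, the beta IV spectrin of nodes (chromosome 7, 27356383 to 27446589), stood at 563, 533 and 549 and then 2618, 3103 and 3092, with no overlap (2.42 ± 0.24 SE, adjusted p = 3.61e-06). Ank1, an ankyrin, rose 5.43-fold, and Cntn2 and Cntnap2, the adhesion pair of the juxtaparanode, 4.97-fold and 1.99-fold. Cntnap1, the paranodal Caspr, rose 3.44-fold. Adam23 and Adam22, receptors of the LGI proteins, rose 5.27-fold and 1.999-fold, and the ligand gene Lgi3 3.51-fold. Nrcam, a nodal adhesion protein, and Epb41l2, the Schwann cell protein 4.1G, went against the list and fell by 0.57 and 0.67. Ank3 and Nfasc, the ankyrin and the adhesion protein that gather channels at nodes, were not called (3237 ± 383 and 3704 ± 290.1 for Ank3, 8183 ± 3962 and 11657 ± 3151 for Nfasc). Against the step from P3 to P7, this list had 12 members higher and 2 lower, and against the step from P14 to P21 13 higher and 0 lower. Over all genes tested, 15.4% were higher and 14.0% lower in the former test, and 13.3% and 9.73% in the latter.

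**Figure D2:**
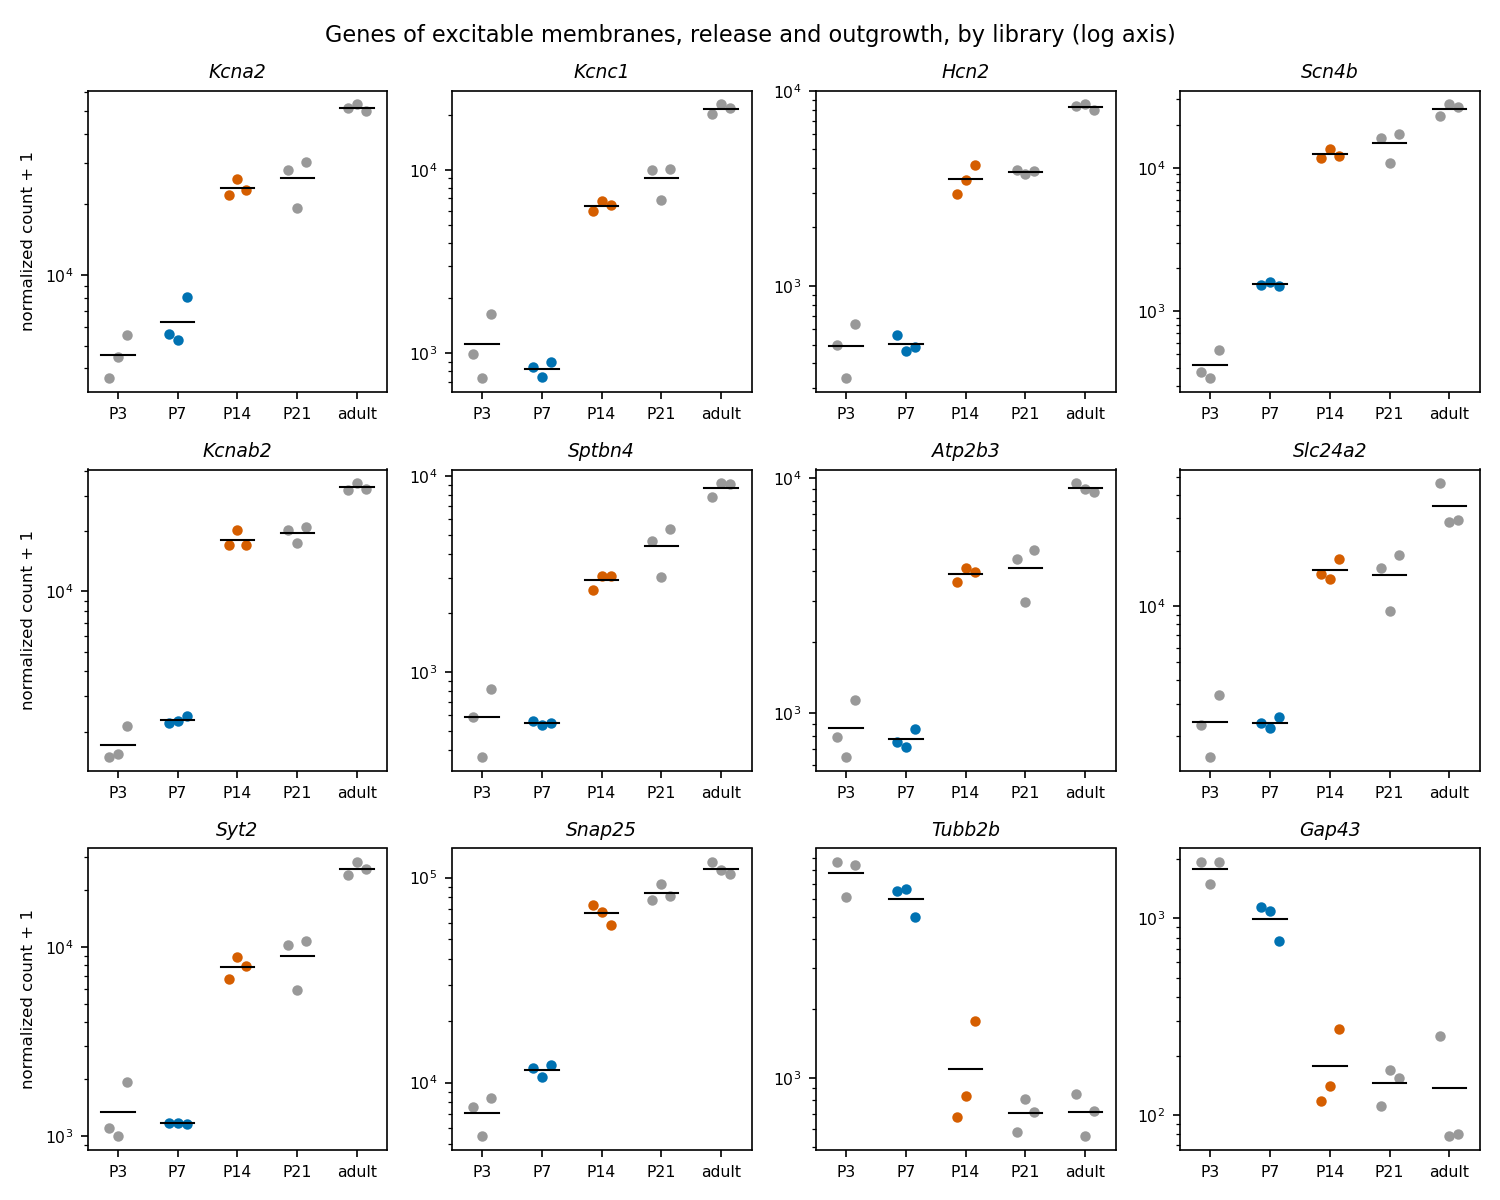
Normalized count + 1 (log axis) by library for 12 neuronal genes at 5 ages, with P7 in blue, P14 in orange, the other ages in grey and a line at the mean of 3 libraries. In the first 10 panels every P14 library lies above every P7 library, and in Tubb2b and Gap43 below.

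Pump and exchanger genes rose more often than they fell. Of 13 sodium-potassium pump genes, 7 rose, 1 fell and 5 did not pass. Fxyd7, a brain regulator of the pump, fell from 575 ± 145 to 152 ± 54.6. Of 21 calcium buffers and pumps, 11 rose, 5 fell and 5 did not pass. Slc24a2, a potassium-dependent sodium-calcium exchanger (chromosome 4, 86983126 to 87230540), rose from 2357, 2219.5 and 2526 to 15019, 14116 and 17926 (2.72 ± 0.28 SE, adjusted p = 5.06e-06). The plasma membrane calcium pumps Atp2b2 and Atp2b3 rose 2.57-fold and 5.07-fold. Calb2, the buffer calretinin, rose 4.33-fold to 87152 ± 18492, Pvalb, parvalbumin, 1.77-fold to 24454 ± 3394, and Calb1 was not called (2019 ± 209 and 1878 ± 1160.4). The sodium-calcium exchangers Slc8a3 and Slc8a2 fell by 1.38 and 0.91.

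Genes of the release machinery rose. Of 37 genes, 25 rose, 3 fell and 9 did not pass, and the median log2 fold change was 1.59. Snap25, a core protein of vesicle fusion (chromosome 2, 136713450 to 136782428), stood at 11716, 10672 and 12191 and then 73650.3, 68035 and 59001 (2.53 ± 0.14 SE, adjusted p = 2.77e-08). Syt2, the calcium sensor of fast synapses (chromosome 1, 134646612 to 134753149), stood at 1177, 1176 and 1161 and then 6793, 8845 and 7948 (2.74 ± 0.24 SE, adjusted p = 1.01e-06), while its relative Syt1 was not called (1924, 2507 and 1884 at P7 and 1048, 296 and 1987 at P14). Vamp1, the vesicle SNARE of fast synapses, rose 4.52-fold, and Vamp2, that of most brain synapses, was not called. Cplx1, a complexin that clamps fusion, rose 3.62-fold, Syn1, a vesicle tether, 5.28-fold, and Nsf, which recycles SNARE complexes, 3.72-fold. Stx1a, a syntaxin, and Unc13b, a priming factor, went the other way and fell by 0.73 and 0.71. Against the step from P3 to P7 this list had 23 members higher and 1 lower, and against that from P14 to P21 21 higher and 0 lower. Over all genes tested, 15.4% were higher and 14.0% lower in the former test, and 13.3% and 9.73% in the latter.

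Ratios between 23 pairs of related genes, set up as later against earlier isoform, were computed in each library. In 20 pairs the P7 and P14 values did not overlap, 18 with a higher and 2 with a lower ratio at P14. The pairs and their order were chosen with earlier results of these data known. The share among arbitrary gene pairs was not computed, and 61.4% of single genes did not overlap either. With 3 libraries against 3 an exact permutation test cannot go below p = 0.1 (two-sided), which all 20 reached (0.115 adjusted over the 23 pairs), so none passes a threshold of 0.05. The ratio of Cplx1 to Cplx2 went from 5.99, 4.72 and 6.48 to 40.9, 57.5 and 29.8, and Syt2 to Syt1 from 0.612, 0.469 and 0.616 to 6.48, 29.8 and 3.997, with a wide spread at P14. Tubb4a to Tubb2b, tubulins of mature and of growing cells, went from 1.56, 1.76 and 0.994 to 13.9, 14.4 and 11.03. Thrb to Thra, the thyroid hormone receptors, was lower at P14 in each library (0.359, 0.369 and 0.403 against 0.351, 0.329 and 0.266), and so was Grin2a to Grin2b, whose counts at P14 are at or below the floor in most libraries and give no reliable ratio.

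**Figure D3:**
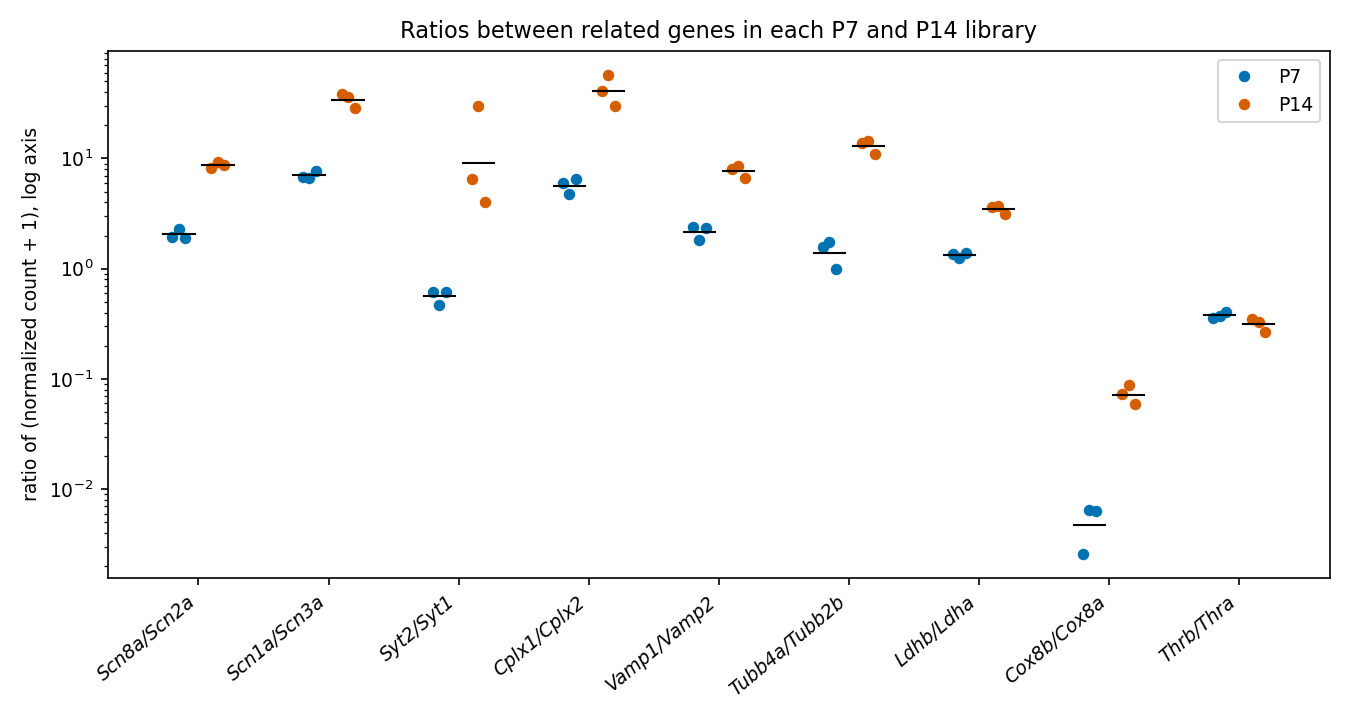
Ratio of normalized count + 1 between related genes (log axis) in each P7 library (blue) and P14 library (orange), with a line at the geometric mean of 3 libraries. The height of a pair depends on the lengths of both genes, and only the shift within a pair can be read; in 8 pairs the orange points lie above the blue and in Thrb/Thra below.

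Receptor genes moved in both directions. Over all genes tested, 24.3% rose and 23.8% fell. The shares were 44.4% and 22.2% for AMPA and NMDA receptors and 30% and 20% for GABA-A and glycine receptors and chloride cotransporters. Those of cholinergic, purinergic and monoamine receptors were 27.3% and 13.6%. Of 18 AMPA and NMDA receptor genes, 8 rose, 4 fell and 6 did not pass; without P7 replicate 5, 1 fell, and without P7 replicate 4, P14 replicate 1 or P14 replicate 2, 2 fell. Grin1, the obligatory NMDA subunit (chromosome 2, 25291177 to 25319187), rose from 1943, 1550.3 and 1918 to 6153, 7541 and 6706 (1.92 ± 0.20 SE, adjusted p = 6.06e-06), although Grin2b was at or near the floor at both ages. Of the AMPA subunits, Gria2, Gria3 and Gria4 rose 1.77-fold, 1.72-fold and 1.60-fold. The AMPA auxiliary subunit Cacng2, stargazin, rose from 54.3 ± 14.3 to 296 ± 19.2, and Grin3a, an NMDA subunit of young neurons, fell from 761 ± 124 to 294 ± 168. Among 20 genes for GABA-A and glycine receptors and chloride cotransporters, 6 rose, 4 fell and 10 did not pass. Without P14 replicate 1, 7 rose and 2 fell, without P14 replicate 3, 6 rose and 6 fell, and without P14 replicate 2, P7 replicate 4 or P7 replicate 5, 1 fell. Beside Glra3, Glrb, the beta subunit of glycine receptors, rose 2.06-fold to 18513 ± 2912, and Slc12a7, a potassium-chloride cotransporter, 2.12-fold. Gabra3, a GABA-A subunit of immature neurons, fell from 596, 526 and 299.6 to 84.8, 55.1 and 132. Of 22 cholinergic, purinergic and monoamine receptors, 6 rose, 3 fell and 13 did not pass, and without P14 replicate 3 5 fell. P2rx3, an ATP-gated channel (chromosome 2, 84996552 to 85035834), fell from 2049.8, 1597 and 2570.3 to 147, 154 and 256 with no overlap (-3.49 ± 0.23 SE, adjusted p = 8.72e-08). Its P3 mean was 3071 ± 360.0. P2rx6, another subunit of the family, rose 5.06-fold, and Chrnb2, a nicotinic subunit, 3.19-fold. Chrnb3 and Chrna6, nicotinic subunits, were not called but split the P14 libraries: Chrna6 stood at 393, 0 and 733 and Chrnb3 at 471, 4.08 and 669.6, while the P7 libraries held 4.52, 1.94 and 0.939 of Chrna6 and 10.8, 5.81 and 4.70 of Chrnb3. P14 replicates 1 and 3 were thus high in both genes and replicate 2 in neither.

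Neurofilament genes rose and several growth cone genes fell. Of 9 intermediate filament genes, 4 rose, 1 fell and 4 did not pass, the 4 that rose being the neurofilament genes Nefh, Nefm, Nefl and Ina. Nefm, a medium-chain subunit that adds calibre to axons, stood at 12621, 12356 and 11441 and then 50065, 47571 and 60066 (2.11 ± 0.19 SE, adjusted p = 1.20e-06). Of 32 genes of microtubules and growth cones, 16 rose, 10 fell and 6 did not pass. Gap43, the growth cone protein, fell from 1141, 1086 and 763 to 117, 139 and 273 (-2.57 ± 0.41 SE, adjusted p = 0.000189), and Marcks and Basp1, which like it bind the inner face of the membrane, fell by 1.51 and 1.13. Tubb2b, a tubulin of migrating and growing neurons, fell from 6480.2, 6607 and 4985 to 677, 835 and 1762, highest in replicate 3 at P14. Tubulin genes are close in sequence and can share reads. Map1a, a microtubule protein of mature axons and dendrites, rose 4.87-fold to 35405 ± 6919, and Tubb3, a neuronal tubulin, 2.92-fold. Of 49 guidance ligands and receptors, 8 rose, 19 fell and 22 did not pass (median -0.42). Robo2, a receptor of the repellent Slit proteins, fell from 1698, 1911 and 1516 to 362, 374 and 573, and its ligand gene Slit2 from 6781 ± 818 to 3413 ± 697. Nrp2, a semaphorin receptor, fell by 1.29 and Ephb2, an ephrin receptor, by 1.39. Sema7a and Unc5a went against the list and rose 3.11-fold and 5.60-fold.

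Markers of neuronal subtypes rose, and transcription factors moved both ways. Of 17 markers of type I subtypes, 12 rose, 0 fell and 5 did not pass. Without any 1 of P7 replicates 4, 5 and 6, 9 rose, and without P14 replicate 1 or 2, 10 rose. Lypd1, a marker of one type I class, rose from 1649, 1458 and 1639.7 to 12236, 11940.1 and 9014 (2.79 ± 0.13 SE, adjusted p = 1.22e-08), and Pou4f1, a transcription factor of the same class, from 148 ± 19.4 to 681 ± 70.4. Calb2, a marker of another class, rose too, while Calb1 was not called. Of 25 transcription factors of these neurons, 8 rose (32%), 7 fell (28%) and 10 did not pass, beside 24.3% and 23.8% over all genes. Gata3, required for their early development, fell from 7086, 6126 and 4767 to 2907, 2509 and 1802 (-1.33 ± 0.26 SE, adjusted p = 0.000796), and Sox4 and Sox11, factors of young neurons, fell to 1197 ± 239 and 648 ± 47.98 from 3216 ± 463 and 1301 ± 131. Esrrg, an orphan nuclear receptor of energy metabolism, rose 2.80-fold, and Maf, a leucine zipper factor, 1.92-fold. Among 27 splicing regulators, 14 rose, 6 fell and 7 did not pass. Srrm3, Rbfox1 and Rbfox3, which promote neuronal exons, rose 4.27-fold, 3.53-fold and 3.23-fold, and Ptbp1, which represses such exons, fell from 10159 ± 129 to 5304 ± 274. Without P14 replicate 3, 11 rose and 6 fell in this list, and without P7 replicate 6 3 fell.

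Secreted and trophic genes gave small counts on both sides. Of 24 neuropeptide genes, 6 rose (25%), 5 fell (20.8%) and 13 did not pass. Over all genes tested, 24.3% rose and 23.8% fell, so these counts are no result about the list. Chga and Chgb, the chromogranins of dense-core vesicles, rose 5.14-fold and 4.24-fold. Npy, neuropeptide Y, fell from 289, 385 and 391 to 87.9, 66.3 and 67.6, and Penk, proenkephalin, from 1643 ± 640.2 to 491 ± 138. Oprl1, the receptor of the peptide nociceptin, rose 2.27-fold. Of 20 genes of neurotrophin and GDNF family signalling, 5 rose (25%), 5 fell (25%) and 10 did not pass, again near the shares over all genes. Without P7 replicate 4 or P14 replicate 2, 3 fell. Ntf3, the neurotrophin that keeps spiral ganglion neurons alive in the embryo, fell from 216, 185 and 170.0 to 76.5, 71.4 and 51.5, and its receptor Ntrk3 was not called (1801 ± 137 and 2184 ± 242). Ngfr, the p75 receptor, and Cntf, a survival factor of Schwann cells, rose 3.40-fold and 3.44-fold.

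Peripheral myelin genes rose less at this step than between P3 and P7 in 10 of 22 cases. The list counts 9 genes up, 1 down and 12 not called, with a median of 0.44. The sum of the list was 993596, 1038540.0 and 1173550.0 at P7 and 1222430.0, 1290180.0 and 1826180.0 at P14, highest in replicate 3, and without that library 7 rose and 2 fell. Drp2, a dystroglycan partner of the Schwann cell membrane (chromosome X, 134404780 to 134456573), stood at 6362, 6129.8 and 8042 and then 20903, 24664 and 19720.2 (1.67 ± 0.19 SE, adjusted p = 1.09e-05). Fa2h, which makes the hydroxylated lipids of myelin, rose 3.31-fold. Pmp2, a myelin lipid carrier, fell from 1887, 1571 and 1884 to 238, 120.4 and 547 (-2.82 ± 0.42 SE, adjusted p = 0.000103). Against the step from P3 to P7 no member was higher, and against the step from P14 to P21 the list had 12 higher and 0 lower. Over all genes tested, 15.4% were higher and 14.0% lower in the former test, and 13.3% and 9.73% in the latter. Of 22 genes of cholesterol synthesis, which feeds myelin growth, 2 rose, 6 fell and 14 did not pass, and the test against the earlier step had 0 members higher and 14 lower. Without P14 replicate 3, 1 rose and 11 fell in that list, and without P14 replicate 2 3 fell.

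Schwann cell genes outside myelin moved both ways. Among 20 genes of immature and nonmyelinating Schwann cells, 8 rose (40%), 6 fell (30%) and 6 did not pass. Over all genes tested, 24.3% rose and 23.8% fell. Fabp7, a lipid carrier of immature glia, fell from 9899, 11374 and 5618 to 1279, 1273 and 2937, and Sox2, an inhibitor of Schwann cell differentiation, from 2342 ± 536 to 1066 ± 57.7. L1cam, an adhesion protein of small axons and their glia, and Ncam1 rose 2.47-fold and 1.54-fold. In the list of 24 Schwann cell regulators, 5 rose (20.8%), 8 fell (33.3%) and 11 did not pass. Adgrg6, the adhesion receptor that starts myelination, fell from 2186, 2248 and 2516 to 1008, 1109 and 1088, whereas Egr2, the transcription factor that keeps it going, was not called (3256 ± 1031 and 4398 ± 257). Nrg1, whose product on axons drives Schwann cell growth, rose 3.79-fold to 759.9 ± 108.

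Counts for central glia depended on single libraries. In the list of 24 oligodendrocyte genes 3 rose and 1 fell, but without P14 replicate 3, 2 rose and 8 fell, and without P14 replicate 1, 5 rose and 0 fell. Mog, a protein of the outer face of their myelin, stood at 1785, 2832 and 517 in the P7 libraries and 432, 1484 and 7532 in the P14 libraries and was not called. Of 22 astrocyte and glial transport genes, 8 rose, 2 fell and 12 did not pass, and without P14 replicate 3 7 rose and 6 fell. Glul, glutamine synthetase, rose from 15622, 15026 and 16179.9 to 60837, 65815 and 55352 (1.96 ± 0.09 SE, adjusted p = 1.05e-08). Kcnj16, an inward rectifier of glia and epithelia, rose 4.19-fold, and S100b, a calcium-binding protein of glia, 2.92-fold. All 3 genes had their lowest P14 value in replicate 3, still above every P7 library. Of 18 genes of the hyaluronan matrix around nodes and neurons, 7 rose, 6 fell and 5 did not pass, and without replicate 3 5 rose and 9 fell. Hapln4, a link protein of this matrix (chromosome 8, 70083529 to 70090862), rose from 453, 463 and 308 to 5127, 5901 and 5178, a 13.4-fold rise (adjusted p = 4.23e-08, limma). Acan, aggrecan, rose 3.39-fold. Tnc, tenascin C of growing tissue, fell from 4519.9, 5603 and 10239 to 735, 660.2 and 1397 (-2.86 ± 0.55 SE, adjusted p = 0.000817).

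Most genes of glycolysis and the tricarboxylic acid cycle rose. Of 34 genes of glycolysis and the lactate shuttle, 22 rose, 5 fell and 7 did not pass (median 0.66; 3 fell without P7 replicate 5, P7 replicate 6 or P14 replicate 3), and of 19 genes of the tricarboxylic acid cycle, 12 rose, 2 fell and 5 did not pass (median 0.36). Eno2, the neuronal enolase (chromosome 6, 124760053 to 124769673), stood at 8482, 7819.6 and 9303 and then 37166, 38049 and 34343 (2.10 ± 0.10 SE, adjusted p = 1.29e-08). Slc2a3, the glucose transporter of neurons, rose 2.81-fold, and Aldoa, Pkm and Pfkm, enzymes of glycolysis, 2.48-fold, 1.96-fold and 2.18-fold. Ckmt1, a creatine kinase of mitochondria, rose 3.37-fold. Ldhb, the lactate dehydrogenase subunit of oxidative cells, rose and Ldha, that of glycolytic cells, fell. Their ratio was 1.35, 1.25 and 1.39 at P7 and 3.60, 3.70 and 3.14 at P14. Slc16a3, the lactate exporter MCT4, fell from 352, 363 and 249.8 to 86.8, 85.7 and 129.9. In the cycle, Ogdh, oxoglutarate dehydrogenase, rose 1.97-fold and Sdha, of succinate dehydrogenase, 1.79-fold, while Idh2 fell by 0.61. Cox8b, a subunit of cytochrome oxidase known from heart and muscle, rose from 28.9, 61.01 and 67.6 to 1091, 1112 and 742. Its relative Cox8a was not called (10644 ± 1010.1 and 13409.5 ± 1351). Of 18 respiratory chain subunits with tissue-specific forms, 5 rose (27.8%), 1 fell (5.56%) and 12 did not pass. Of 15 regulators of mitochondrial biogenesis, 5 rose (33.3%), 3 fell (20%) and 7 did not pass (median 0.13). Over all genes tested, 24.3% rose and 23.8% fell. The regulators Ppargc1a, Esrra and Esrrg of mitochondrial genes rose 2.47-fold, 2.65-fold and 2.80-fold, and Nrf1 fell by 0.27. Among 25 antioxidant genes, 12 rose, 3 fell and 10 did not pass. Mt3 and Sod3, a metallothionein and the secreted superoxide dismutase, rose 2.79-fold and 2.40-fold.

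**Figure D4:**
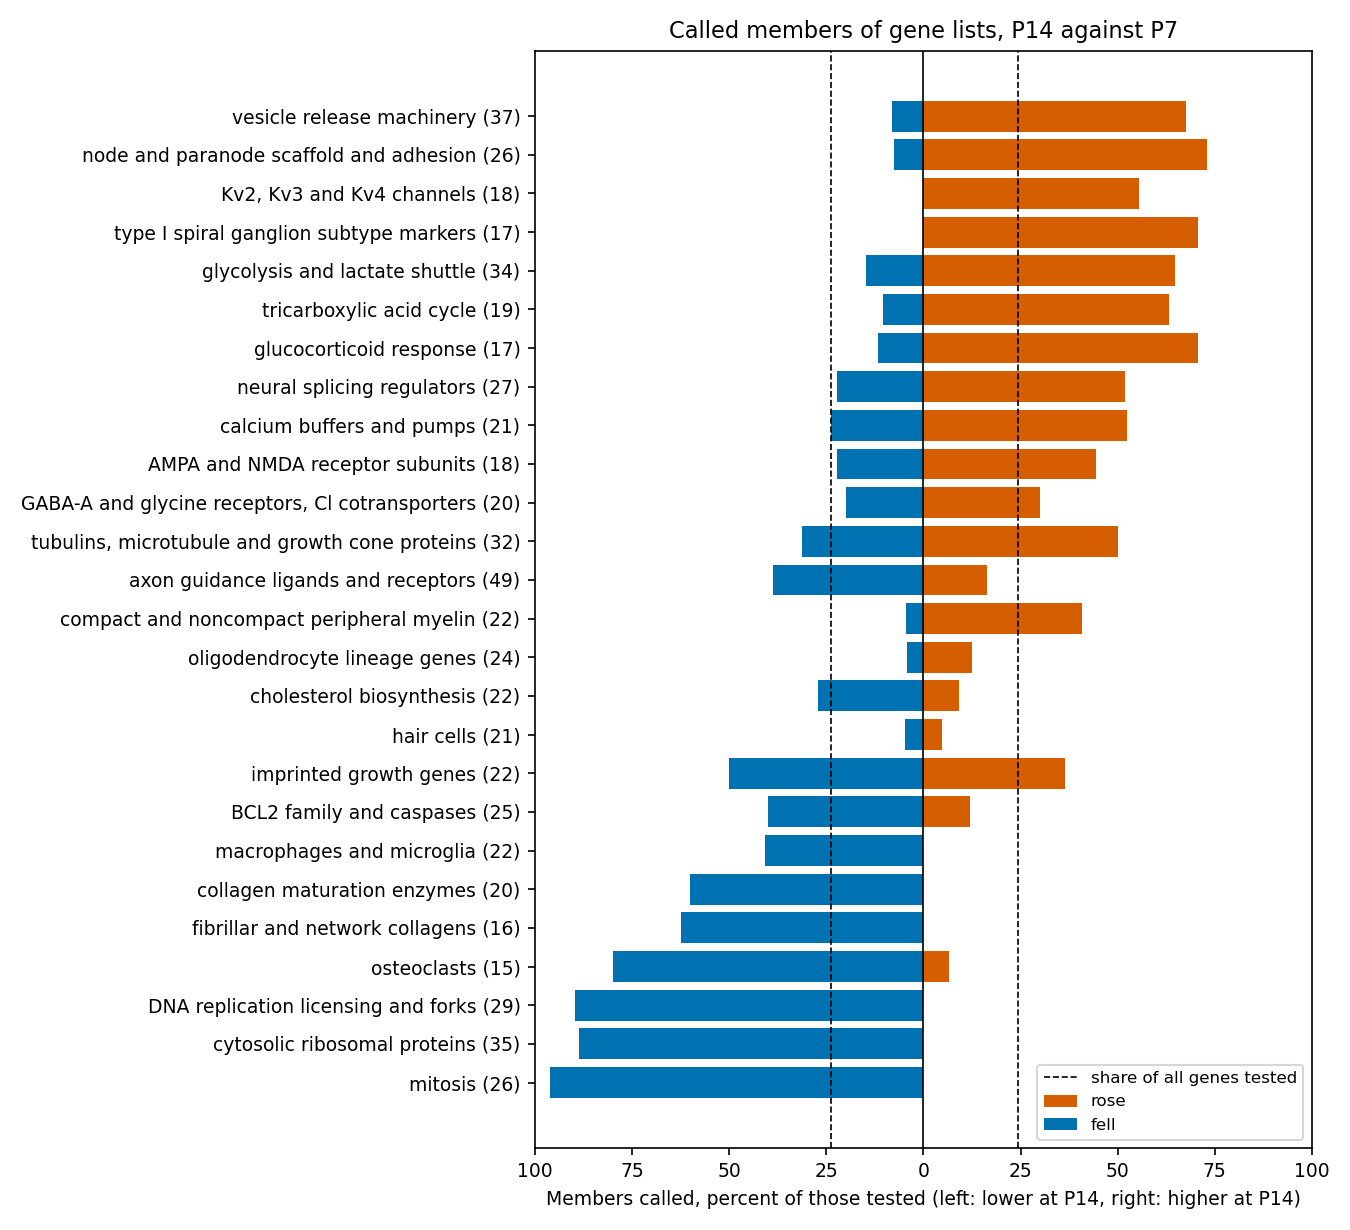
Share of tested members (n in brackets) that rose (orange, right) or fell (blue, left) at P14 against P7 for 26 gene lists, with dashed lines at the shares over all genes tested, 24.3% and 23.8%. The lists of release machinery (67.6%), nodes (73.1%), type I markers and glucocorticoid response (both 70.6%) have the highest shares risen among the 26 lists shown, and mitosis (96.2%), replication (89.7%) and ribosomal proteins (88.6%) the highest shares fallen.

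Genes of cell division fell as a group. Of 26 mitotic genes, 0 rose, 25 fell and 1 did not pass (median -1.84). Of 29 genes of DNA replication, 0 rose, 26 fell and 3 did not pass (median -0.98). The mitotic sum had been 25384.5, 26906 and 28732 at P3 and was 14794, 14337 and 14471 at P7. Against the step from P3 to P7, 1 mitotic and 5 replication genes were lower and 0 higher, beside 14.0% lower over all genes. Against that from P14 to P21, 10 and 17 were lower and 0 higher, beside 9.73% lower over all genes. Cdk1, the kinase that starts mitosis (chromosome 10, 69336635 to 69352912), stood at 777, 743 and 597 in the P7 libraries and at 223, 68.4 and 151 in the P14 libraries (-2.40 ± 0.40 SE, adjusted p = 0.000276). Rfc3, a subunit of the clamp loader of replication forks, went from 676, 647 and 655 to 312, 331 and 311 (-1.05 ± 0.09 SE, adjusted p = 7.30e-07). Mcm6, of the replicative helicase, fell 2.14-fold, Tpx2, of the spindle, 3.47-fold, and Prc1, of the midzone, 2.90-fold. Anln, a cleavage furrow protein that oligodendrocytes also express, was the only mitotic gene not called (966, 972 and 895 and 1017, 1218 and 2293). The number of replication genes that fell was 18 without P14 replicate 2, the library with the lowest mitotic sum (7016, 3733 and 6440.0 at P14), and 19 without P14 replicate 3. Of 19 cell cycle inhibitors and quiescence genes, 7 rose, 6 fell and 6 did not pass, with 4 risen without P14 replicate 2. Cdkn1c, the p57 inhibitor, fell from 7561, 5974 and 8321 to 2004, 1992 and 3093, and Cdkn1b, the p27 inhibitor, was not called.

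The promoters of these genes are shown because their sequences hold short motifs known from cell cycle genes. Counted in the 250 bases before RefSeq start sites (GRCm38.p6) on both strands, an E2F-like motif (TTTCCCGC, TTTGGCGC, TTTCGCGC or TTTGCCGC) was held by 9 of 24 (37.5%) replication genes with a promoter entry, 1 of 22 (4.55%) mitotic genes and 441 of 12872 (3.43%) of all tested genes with an entry. The cell cycle homology region (CHR), TTTGAA, was held by 4 of 24 (16.7%), 7 of 22 (31.8%) and 1681 of 12872 (13.1%), and the CCAAT box by 17 of 24 (70.8%), 17 of 22 (77.3%) and 5088 of 12872 (39.5%). The CRE, TGACGTCA, was held by 1 of 24 (4.17%), 1 of 22 (4.55%) and 365 of 12872 (2.84%). None of these motifs contains another. A match is a description of letters, not a bound site. Stretches are printed for genes that fell, taken by smallest adjusted p. Replication genes had to hold an E2F-like match, and mitotic genes both a CCAAT box and a CHR within 1 stretch of 80 bases. Some genes that met this rule are not reported here. Those matches are in capitals (E2F-like in the replication genes, CCAAT box and CHR in the mitotic genes), and other motifs in a stretch are not marked. A match on the other strand reads as its reverse complement. The printed stretches are 80 bases each in the direction of the gene. They lie at chr5:151651209-151651288 (Rfc3, minus strand), chrX:93632214-93632293 (Pola1, minus), chr1:128359706-128359785 (Mcm6, minus), chr10:69352913-69352992 (Cdk1, minus), chr7:80294396-80294475 (Prc1, plus) and chr4:118437344-118437423 (Cdc20, minus).
Rfc3: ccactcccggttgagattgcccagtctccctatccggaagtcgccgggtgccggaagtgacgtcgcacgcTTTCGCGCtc
Pola1: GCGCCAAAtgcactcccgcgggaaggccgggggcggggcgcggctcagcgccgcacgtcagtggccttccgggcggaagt
Mcm6: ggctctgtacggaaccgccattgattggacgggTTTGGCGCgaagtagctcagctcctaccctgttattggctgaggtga
Cdk1: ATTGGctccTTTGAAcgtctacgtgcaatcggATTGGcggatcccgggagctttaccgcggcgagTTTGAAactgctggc
Prc1: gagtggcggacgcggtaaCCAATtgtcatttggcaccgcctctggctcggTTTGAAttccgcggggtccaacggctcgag
Cdc20: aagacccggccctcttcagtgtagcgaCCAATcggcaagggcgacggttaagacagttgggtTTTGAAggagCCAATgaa
Pola1, a DNA polymerase subunit, fell from 958, 921 and 968 to 559, 404 and 488, and Cdc20, an activator of the anaphase complex, from 396, 348 and 369 to 237, 148 and 165, with no overlap in either.

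Other genes of perinatal growth fell beside them. Of 35 ribosomal protein genes, 0 rose, 31 fell and 4 did not pass (median -0.85). Rps20 went from 8451, 7771 and 8575 to 3835, 3084 and 3588 (-1.24 ± 0.10 SE, adjusted p = 6.25e-07), and Rplp0 fell 2.17-fold. Ribosomal protein genes have many near-identical pseudogenes, so their counts may be split. Of 22 imprinted growth genes, 8 rose, 11 fell and 3 did not pass. Beside H19, Grb10, a brake on insulin signalling, fell from 9985, 9018 and 9683 to 2528, 2152 and 3395 (-1.85 ± 0.16 SE, adjusted p = 1.18e-06), and Igf2, the fetal growth factor, from 81708 ± 1383 to 31956 ± 7099. Plagl1, a transcription factor of this network, fell by 1.43 and Zim1 by 2.93. Meg3, Rian and Mirg, the maternal RNAs of 1 imprinted cluster, rose 2.35-fold, 1.48-fold and 2.71-fold. Of 15 fetal programme genes, 2 rose, 8 fell and 5 did not pass. Igf2bp3 and Igf2bp2, RNA-binding proteins of the fetus, fell by 1.46 and 1.15, Hmga2, a chromatin protein, from 96.9 ± 19.7 to 20.2 ± 4.38, and Hmga1 went against the list and rose 2.23-fold. Of 17 genes of the insulin-like growth factor system, 3 rose, 5 fell and 9 did not pass. Igf1 fell from 12853 ± 746 to 5558 ± 1051 and the binding protein genes Igfbp3, Igfbp4 and Igfbp5 fell by 1.07, 1.01 and 0.91, while Igfbp6 rose 3.50-fold.

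**Figure D5:**
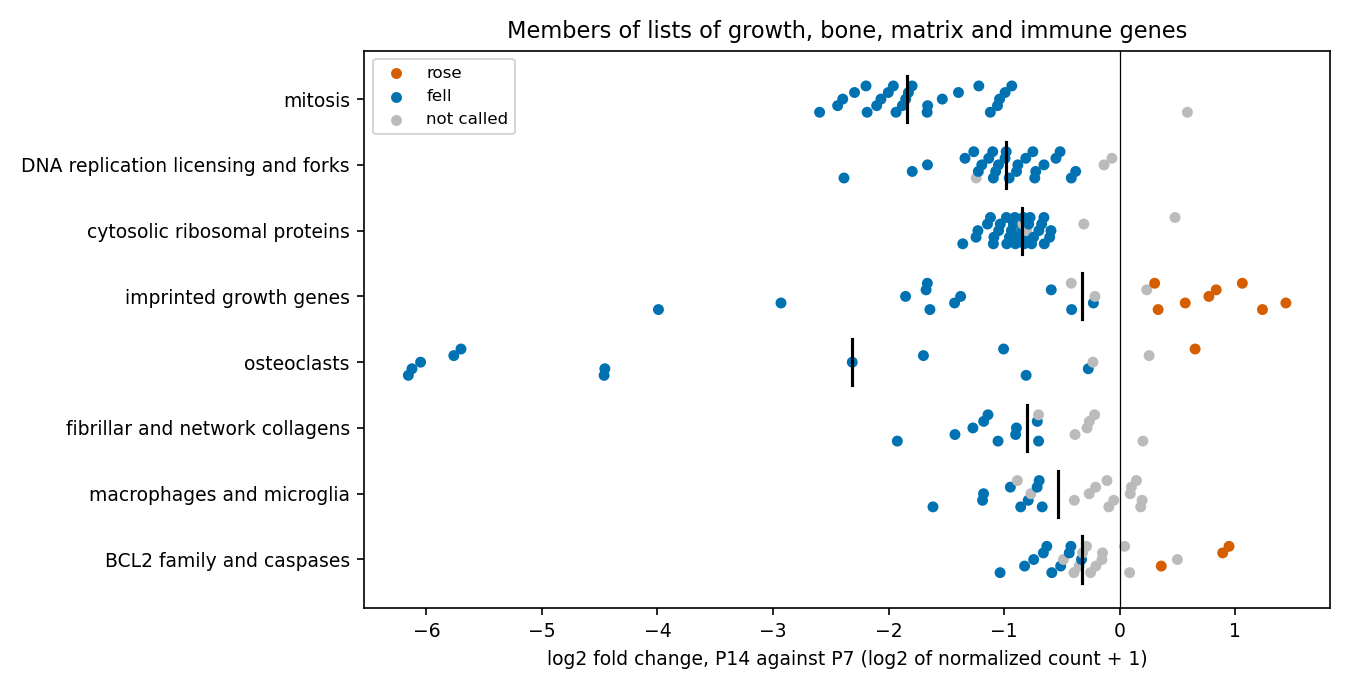
Log2 fold change from P7 to P14 of each tested member of 8 lists (points, staggered in height), coloured by whether it rose, fell or was not called, with a bar at the list's median. All mitotic genes but Anln and all called ribosomal protein genes lie left of 0, and the imprinted genes lie on both sides.

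Enzymes that activate and inactivate hormones moved in opposite directions. Hsd11b1, which makes active glucocorticoid (chromosome 1, 193221641 to 193264045), stood at 134, 171 and 127 in the P7 libraries and at 1958, 2218 and 1003 in the P14 libraries (3.51 ± 0.29 SE, adjusted p = 7.14e-07). Hsd11b2, which inactivates it (chromosome 8, 105518746 to 105523988), moved the opposite way, from 158, 121 and 136 to 18.6, 9.18 and 15.02 (-3.23 ± 0.31 SE, adjusted p = 2.12e-06; -2.62 with a pseudocount of 10). Of 17 genes of glucocorticoid response, 12 rose, 2 fell and 3 did not pass (median 1.03). The list includes the receptor genes Nr3c1 and Nr3c2 and both enzymes, with Hsd11b1 among the 12 and Hsd11b2 among the 2. Tsc22d3, Fkbp5 and Klf15, classical targets of the glucocorticoid receptor, rose 2.55-fold, 2.88-fold and 2.52-fold, and without P14 replicate 1 12 rose and 1 fell in the list. Of 20 genes of thyroid hormone signalling, 4 rose, 7 fell and 9 did not pass. Dio2, the deiodinase that activates the hormone (chromosome 12, 90724552 to 90739037), stood at 24663, 24094 and 23398 and then 6473, 6642 and 9486 (-1.70 ± 0.26 SE, adjusted p = 0.000145), and Dio3, which inactivates it, at 4.52, 6.78 and 4.70 and then 69.3, 37.8 and 42.9. Dio2 had been at 9802 ± 1507 at P3, so it was highest at P7. The log2 fold change of Dio3, 2.98, was 1.94 with a pseudocount of 10. Crym, a protein that binds thyroid hormone, fell from 1115, 882 and 1155 to 334, 288 and 349.8, and Slco1c1, a transporter of it, rose 2.13-fold. Both receptor genes Thrb and Thra fell, by 0.78 and 0.51. Of 20 circadian clock genes, 8 rose, 0 fell and 12 did not pass, among them Per2, which rose 2.64-fold; times of dissection are not stated. Of 21 immediate early genes, 6 rose (28.6%), 3 fell (14.3%) and 12 did not pass, beside 24.3% and 23.8% over all genes. Arc, an activity-regulated gene of neurons, rose 2.57-fold and Fosb fell by 1.77.

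Genes of osteoclasts and of collagen synthesis fell. Of 15 osteoclast genes, 1 rose, 12 fell and 2 did not pass (median -2.31). The osteoclast sum had been 109399, 181312 and 167343 at P3 and was 55276, 50925 and 71761 at P7. Against the step from P3 to P7, 5 osteoclast genes were lower and 1 higher, beside 14.0% lower and 15.4% higher over all genes. Ctsk, the collagen-degrading protease of these bone-resorbing cells, stood at 16947, 16107 and 22875 and then 3924, 3952 and 3269 (-2.31 ± 0.21 SE, adjusted p = 1.37e-06). Acp5 and Mmp9, acid phosphatase and gelatinase of the same cells, fell further, to 276, 44.9 and 539 and 174, 31.6 and 351. Without P14 replicate 2 their log2 fold changes were -5.10 and -5.07, in place of -6.12 and -6.05, and without replicate 3 -6.88 and -6.79. Car2, which also occurs outside osteoclasts, was the only member that rose (1.57-fold). Of 19 osteoblast and osteocyte genes, 2 rose, 6 fell and 11 did not pass, with 3 fallen without P14 replicate 2. Ifitm5, a protein of osteoblasts that lay down bone, fell from 3970.4, 4113 and 3755 to 541, 324 and 719, and Spp1, osteopontin, rose 2.19-fold. Of 16 collagens, 0 rose, 10 fell and 6 did not pass, and of 20 enzymes that mature collagen, 0 rose, 12 fell and 8 did not pass. The collagen sum had been 634722, 945567 and 1010930.0 at P3 and was 454142, 412591 and 565282 at P7. Against the step from P3 to P7, 2 collagens were lower and 0 higher, and 7 of the enzymes were lower and 3 higher. The 2 collagens that were lower and the 3 enzymes that were higher are near the shares over all genes. Col3a1, of loose connective tissue, fell from 94587 ± 12717 to 41822 ± 5706, and Fkbp10, a chaperone of collagen folding, fell by 1.32. Col1a1 was not called (53682 ± 19175 and 32977 ± 11899). Of 18 cartilage genes, 5 rose (27.8%), 4 fell (22.2%) and 9 did not pass, beside 24.3% and 23.8% over all genes. Ucma, a cartilage matrix protein, rose 5.84-fold, and Col9a1, a collagen IX chain, fell by 0.94. Of 22 basement membrane genes, 2 rose, 5 fell and 15 did not pass, with 3 fallen without P7 replicate 5 or P14 replicate 1. The laminin chains Lamc3 and Lama1 rose 3.67-fold and 3.17-fold.

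Few hair cell genes were called. Of 21, 1 rose, 1 fell and 19 did not pass. Otof, otoferlin of their synapses, stood at 2328, 2618 and 2059 and 1605, 1966 and 1485 and was not called. Of 21 fibrocyte and stria genes, 7 rose, 3 fell and 11 did not pass. Slc4a11, a transporter of fibrocytes, rose from 67.8, 58.1 and 89.2 to 727, 825 and 379, Otos, otospiralin, 2.97-fold, and Slc26a4, pendrin, 3.29-fold. Of 20 genes of endothelium and its barrier, 10 rose, 2 fell and 8 did not pass, and of 15 genes of pericytes and smooth muscle, 5 rose, 0 fell and 10 did not pass, with 3 risen without P7 replicate 4. Abcb1a, an efflux pump of the barrier, rose 2.40-fold, Slc2a1, its glucose transporter, 1.91-fold, and Lef1, a factor of barrier development, fell from 1902 ± 179.9 to 652 ± 44.7. Acta2, smooth muscle actin, rose 2.81-fold.

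Every called macrophage gene fell and every called interferon-induced gene rose, but most members of both lists did not pass. Of 22 macrophage and microglia genes, 0 rose, 9 fell and 13 did not pass (median -0.53). Tmem119, a microglial marker that osteoblasts also express, fell from 6790.2, 7162 and 7009.5 to 2170.1, 1710.1 and 3186, Cd68 by 1.18 and Csf1r, the receptor on which these cells depend, by 0.67. Of 22 interferon-induced genes, 8 rose, 0 fell and 14 did not pass (median 0.51). Over the other settings between 4 (without P7 replicate 6) and 12 of them rose, with 5 without P7 replicate 4 or P14 replicate 1. The sum of the list was 17021, 28668 and 34838 at P3, 8117, 8535 and 8112 at P7 and 12622, 11969 and 11517 at P14. The test against the earlier step had 19 members higher and 0 lower, beside 15.4% higher and 14.0% lower over all genes. Ifit1 rose from 117, 131 and 125 to 426, 437 and 379 after a P3 mean of 635 ± 326. C4b, a complement component, rose from 54.2, 67.8 and 61.04 to 242, 436 and 449, and has a near-identical paralog that can share its reads. Of 26 genes of complement and engulfment, 5 rose (19.2%), 6 fell (23.1%) and 15 did not pass, with 3 fallen without P14 replicate 2. Over all genes tested, 24.3% rose and 23.8% fell. Of 17 genes of antigen presentation, 4 rose (23.5%), 1 fell (5.88%) and 12 did not pass. In that list 1 rose without P7 replicate 4 or P14 replicate 2, and 2 without any 1 of P7 replicate 5 and P14 replicates 1 and 3. Among 25 genes of the BCL2 family and caspases, 3 rose, 10 fell and 12 did not pass. Casp6, an effector caspase (chromosome 3, 129901415 to 129914112), stood at 1347, 1298 and 1286 and then 814, 765 and 650.3 (-0.82 ± 0.12 SE, adjusted p = 6.43e-05), and Apaf1, the core of the apoptosome, fell by 0.59. The 3 that rose were Bcl2l1, Bcl2l2 and Bcl2, all of which hold back apoptosis, by 1.93-fold, 1.85-fold and 1.28-fold. None of 13 globin and erythroid genes and none of 13 neutrophil genes was called in either direction, and of 19 skeletal muscle genes, 3 rose, 7 fell and 9 did not pass, with 1 risen without P7 replicate 4 or P14 replicate 3. Their part in the results above was not tested.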

How the data were processed

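RNA of the auditory nerve (both cochleae of 1 mouse per library) was purified with the miRNeasy kit, low-quality RNA was excluded, and TruSeq libraries were sequenced, per the labels' protocols. TopHat2, Partek, DESeq2 and mm10 are named in the submitters' processing notes; annotation, strand and counting rules are not given in the sources used here. The deposited signal values are read counts divided by a size factor by the authors, as the values show: 99.94% are whole reads within 0.1 once multiplied back. Reads per library were recovered in this way, and precision is that of 3 libraries per age at this depth.

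Of 18536 genes, the 16723 that reached a value of 10 in 3 or more libraries were tested on log2(value + 1), which understates changes of low genes, with limma 3.58.1 (trend and robust) in R 4.3.3, with all 15 libraries in 1 fit and Benjamini-Hochberg adjustment over all genes tested. The labels call each library a separate mouse's sample. Named genes are the 12 that rose and 12 that fell most at 10 or more CPM (computed from the normalized counts) without overlap, the 8 that led each direction of each step test, list members (smallest adjusted p first, and those against the list), isoform pairs, Xist and Eif2s3y. The members, lists and tests were chosen with earlier results of these data known. Coordinates are mm10. Some genes that met this rule are not reported here. Alternatives were other scalings, filters, pseudocounts, DESeq2 1.42.0, edgeR 4.0.16 and limma-voom on recovered reads, a minimal change, a fit of only the P7 and P14 libraries, and each library left out.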

Additional observations from a re-analysis of the deposited data

How the results depend on the processing

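No paired analysis was possible because each library came from a separate mouse. The number of genes called lay between 6736 and 8481 when each library was left out in turn or another scaling, filter, pseudocount or tool was used, with 7994 by edgeR, 8022 by limma-voom and 8481 by DESeq2. It was 8771 with only the P7 and P14 libraries in the fit. With a tested minimal log2 fold change of 1 it was 658 (445 rose, 213 fell). For the step against P3 to P7 the count lay between 3165 and 4833 over the libraries left out, and for the step against P14 to P21 between 2131 and 3332. Of 224 named genes that were called, 222 stayed called in all 16 settings other than the minimal-change test, which 101 passed. Cplx2 and Grin2a lost the call in some of them. None of the named genes that were called reversed its sign. Of 69 lists, 48 kept their majority direction throughout. Between 18 and 22 of the 23 isoform pairs did not overlap under other settings. Counts near the floor limit the fold changes of low genes.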

Other observations

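Some lists moved little or hung on few members. Of 18 genes of tissue-specific respiratory chain subunits, 5 rose, 1 fell and 12 did not pass, and beside Cox8b the adenine nucleotide carrier Slc25a4 rose 1.40-fold. Of 16 genes of the DNA methylation machinery, 3 rose, 2 fell and 11 did not pass, and the methyltransferase Dnmt3a was not called (9966 ± 608 and 10261 ± 1519). Of 12 small leucine-rich proteoglycans, 3 rose (25%), 3 fell (25%) and 6 did not pass, beside 24.3% and 23.8% over all genes. Fmod, fibromodulin, rose 1.84-fold and Lum, lumican, fell by 1.49. Of 9 adipocyte genes, 4 rose, 0 fell and 5 did not pass, and Adipoq, the adipokine that defines these cells, stood at 0, 1.94 and 28.2 at P7 and 23.8, 0 and 17.2 at P14.

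Chrna6 and Chrnb3 varied between libraries of the same age. Chrna6 stood at 362, 62.6 and 306 at P3, 1.87, 0 and 4.89 at P21 and 1370.4, 6.56 and 207 in adults, and Chrnb3 at 229, 58.8 and 253, 1.87, 0 and 3.91 and 1779, 24.1 and 295.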
